A study of Mus musculus with 24 samples.

Results

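The genes of the major histocompatibility complex (MHC) class II pathway and their master regulator Ciita were measured in mouse adipose tissue. The group was chosen by gene symbol and holds 10 of the 24421 gene symbols in the count files: H2-Aa, H2-Ab1, H2-Eb1, Cd74, H2-DMa, H2-DMb1, H2-DMb2, H2-Oa, H2-Ob and Ciita. All 10 were listed in all 24 libraries. The tissue came from C57BL/6 mice aged 2 months and was profiled by total RNA sequencing. Genotypes were wild type (WT), STAT5B-Y665F and STAT5B-Y665H, with 4 female and 4 male libraries per genotype, which made 6 groups. STAT5B carries signals from cytokine receptors and the growth hormone receptor to the nucleus. The mutations put phenylalanine (Y665F) or histidine (Y665H) in place of the same tyrosine. The labels name no fat depot and do not say whether the mutations were homozygous or whether each library came from a separate animal, so p-values measure the spread between these libraries.

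Class II molecules present peptides from the endosomal route to CD4 T cells. Dendritic cells, B cells and macrophages carry most of them, and in adipose tissue macrophages and dendritic cells are the best known carriers. The α and β chains assemble on the invariant chain (Cd74), the DM proteins load the peptide, the DO proteins restrain DM, and the class II transactivator (Ciita) is needed for transcription of the set. Ciita does not bind DNA itself. It is recruited to a proximal promoter element made of the X box, bound by RFX, and the Y box, bound by NF-Y.

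The 8 H2 genes lie within 224 kb of chromosome 17 (chr17:34092379-34316674, GRCm38.p6), Ciita lies at chr16:10480014-10531064, and Cd74 lies on another chromosome. The promoters are shown because this shared element is where Ciita acts on the set. RefSeq promoter windows, from 250 bases before to 50 bases after the start, were matched for 7 of the 10 genes (8 windows), and H2-Ab1, Cd74 and Ciita had no entry. The motifs searched were 3, each on both strands: the Y box CCAAT, an X1 box core (AG, any base, AAC, any 3 bases, TG) and an X2 box core TGNGTCA. The Y box letters were in 7 of the 8 windows, against 37.4% of all 32851 promoters of the same length. The X1 core was in 3 of the 8 windows (H2-Eb1, H2-DMb1 and H2-Ob), against 4.18% of all, and the X2 core in 2 of the 8, against 15.4%. A match is a description of letters and not a measured binding site. The 80-base stretches below are aligned at the Y box and read on the gene's strand; capitals mark the Y box (ATTGG, the reverse complement of CCAAT) and the X1 core.
H2-Eb1: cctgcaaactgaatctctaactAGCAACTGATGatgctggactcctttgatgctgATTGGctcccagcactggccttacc
H2-DMb1: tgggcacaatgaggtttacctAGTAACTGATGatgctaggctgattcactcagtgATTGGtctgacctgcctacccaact
H2-DMb2: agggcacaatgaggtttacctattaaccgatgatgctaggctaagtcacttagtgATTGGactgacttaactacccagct
H2-Ob: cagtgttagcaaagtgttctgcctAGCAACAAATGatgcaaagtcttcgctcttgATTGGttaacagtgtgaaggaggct
H2-Oa: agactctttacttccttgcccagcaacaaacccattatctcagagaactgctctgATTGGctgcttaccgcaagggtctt
H2-Aa: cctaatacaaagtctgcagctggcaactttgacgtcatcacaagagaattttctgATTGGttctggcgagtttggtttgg

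These stretches lie at chr17:34305753-34305832 (H2-Eb1), chr17:34153075-34153154 (H2-DMb1), chr17:34145104-34145183 (H2-DMb2), chr17:34238793-34238872 (H2-Ob), chr17:34092281-34092360 (H2-Oa) and, on the minus strand, chr17:34287847-34287926 (H2-Aa). In the genes with an X1 match, 22 bases (H2-Eb1), 23 bases (H2-DMb1) and 20 bases (H2-Ob) separated it from the Y box. The marked Y box began 43 to 90 bases before the annotated start in these 6 windows. The other 2 windows belong to H2-DMa. Its Y box match began 198 bases before the start, too near the window's edge for an 80-base stretch. Matches were counted anywhere in a window, so their order can differ from X box before Y box. The X2 match of H2-DMa began 86 bases before the start, after its Y box match. The X2 match of H2-Oa began 132 bases before the start, on the opposite strand, and its Y box 43 bases before.

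The gene counts of a library, in units of 1e6, ran from 21.0 to 41.3 with a median of 34.6, and every level below is scaled to 1e6 such counts (CPM). A level of 3 counts corresponds to 0.0726 to 0.143 CPM. The 12 adipocyte markers, among them Adipoq and Plin1, all had a mean above 1 CPM in every group. WT male 2 stood apart: its adipocyte markers summed to 8266 CPM, the lowest of all libraries, and 8 epididymis markers summed to 14031 CPM. Its 5 plasma cell markers summed to 238 CPM and its 13 T and NK cell markers to 156 CPM, the highest of all libraries, mostly from Sdc1 at 184 CPM and Klrb1c at 117 CPM. Its 5 markers of lymph node stroma and follicular dendritic cells summed to 7269 CPM, nearly all from Clu at 7267 CPM, while Cxcl13 and Ccl19 reached at most 3.14 and 5.64 CPM in WT males. Those epididymis markers reached 1.24 to 3236 CPM in the other WT males, 0.502 to 953 CPM in Y665F males, 2.03 to 1604 CPM in Y665H males and at most 2.16 CPM in females. In Y665F female 3, 10 epithelial markers summed to 1485 CPM, and in the other female libraries they stayed at or below 286 CPM. The 8 skeletal muscle markers summed to 17.6 to 1304 CPM over the libraries. Results that change with these libraries are given without them as well.

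Set against the length of all annotated exons of a gene, the invariant chain was the most abundant member. In WT females, Cd74 stood at 180 CPM per kb of exon, H2-Eb1 at 81.6, H2-Ab1 at 64.3 and H2-Aa at 38.8. The order among H2-Aa, H2-Ab1 and H2-Eb1 depends on the length used. All exons span 3.80, 2.57 and 1.94 kb in these genes, but their longest coding transcripts have 1128, 1212 and 1669 bases. Without scaling by length they stood at 147, 165 and 159 CPM. The DM genes followed, with H2-DMb1 at 11.6 and H2-DMa at 5.89 CPM per kb. Ciita stood at 2.03, H2-DMb2 at 1.48, H2-Ob at 0.392 and H2-Oa at 0.117 CPM per kb. The β chain of DO therefore had the lowest level of the tested genes, and its α chain H2-Oa had 2 to 23 counts per library, which did not pass the filter on low counts in any comparison. The other 9 members were tested, and H2-Oa is described only.

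For 8 of the 10 genes, all but H2-DMb2 and H2-Ob, the group means in CPM ran in the same order: Y665H females lowest, then WT females, WT males, Y665H males, Y665F females and Y665F males. Many neighbours in that order overlapped. The step from WT females to WT males has no settled direction. In the edgeR fits H2-Aa, H2-Ab1, H2-Eb1, Cd74 and Ciita lay below 0 for males (log2 differences -0.09 to -0.006). H2-Oa moved there only from 0.164 to 0.170 CPM. The ranges of Y665H females and WT females did not overlap for H2-Aa, H2-Ab1, Cd74, H2-DMa, H2-DMb1 and Ciita, and did for H2-Eb1, H2-DMb2 and H2-Oa. Ciita also separated Y665F females from Y665F males, and H2-DMa separated Y665H males from Y665F females; the other neighbours of these 8 genes overlapped. H2-Ob departed from this order, with WT males lowest and Y665F females highest, as did H2-DMb2, whose WT male libraries ranged from 2.26 to 31.6 CPM.

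**Figure D1:**
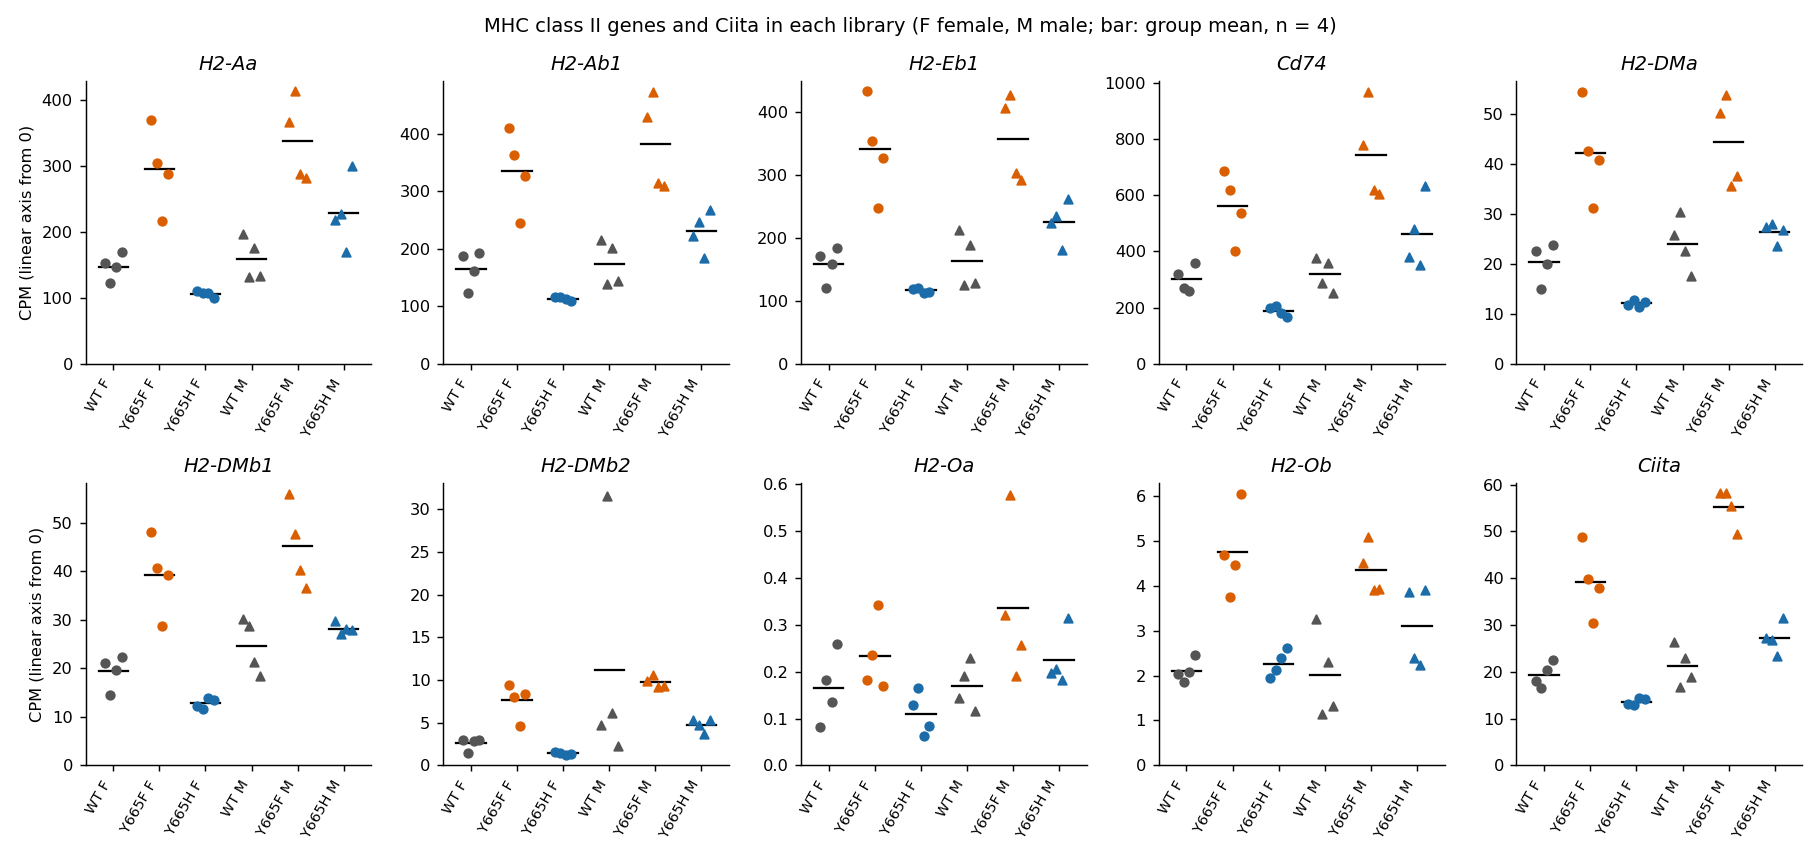
Level of each of the 10 genes in each of the 24 libraries, in CPM on linear axes that start at 0, with 1 panel per gene; points are libraries (circles female, triangles male) and bars are means of 4. In H2-Aa, the Y665F female libraries lie between 217 and 369.6 CPM and the Y665H female libraries between 99.9 and 109.9 CPM; in H2-DMb2 a single WT male library lies at 31.6 CPM.

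In females, the class II genes and Ciita stood at 1.70 to 2.71 times their WT level in Y665F, by the fitted fold changes of the 9 tested genes. H2-Aa, the α chain of I-A, had 152, 122, 146 and 169 CPM in the WT libraries. The Y665F libraries had 369.6, 305, 217 and 288 CPM. The lowest Y665F library lay above the highest WT library. The fitted difference was 0.87 (log2, SE 0.18; edgeR quasi-likelihood test, adjusted p = 0.0399). H2-Ab1, its β partner, rose from 165 ± 31.8 to 336 ± 70.1 CPM (mean ± SD, n = 4 each; log2 difference 0.90, SE 0.20, edgeR adjusted p = 0.0489). H2-Eb1, the β chain of I-E, rose from 159 ± 27.2 to 341 ± 76.4 CPM (log2 difference 0.98, SE 0.20, edgeR adjusted p = 0.0389). The symbol of its α partner, H2-Ea, was not in the count files. The H2-Eb1 values are RNA levels of 1 chain and do not show whether I-E molecules were made. For Cd74, WT females had 321, 270.0, 259.7 and 357 CPM, whereas Y665F females had 686, 620.2, 401 and 536 CPM. These groups did not overlap either, but the adjusted p of Cd74 was 0.0666 in edgeR (log2 difference 0.77, SE 0.19).

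The peptide-loading genes rose as well. H2-DMa, the α chain of DM, had 22.6, 15.0, 19.9 and 23.7 CPM in WT females against 54.4, 42.7, 31.2 and 40.7 CPM in Y665F females, a log2 difference of 0.93 (SE 0.20, edgeR adjusted p = 0.0453). H2-DMb1, a β chain of DM, rose from 19.4 ± 3.39 to 39.2 ± 7.95 CPM (log2 difference 0.89, SE 0.19, edgeR adjusted p = 0.0433). H2-DMb2 had 2.98, 1.50, 2.88 and 2.95 CPM in WT females against 9.41, 8.01, 4.64 and 8.42 CPM in Y665F females; its log2 difference of 1.44 (SE 0.29, edgeR adjusted p = 0.0402) was the largest of the 9. The transcripts of H2-DMb1 and H2-DMb2 are 94.96% identical over 1211 aligned bases, so the split of reads between these β chains is uncertain.

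H2-Ob, the β chain of DO, had 2.03, 1.87, 2.07 and 2.46 CPM in WT females against 4.69, 3.75, 4.46 and 6.04 CPM in Y665F females. Every Y665F library was above every WT library, and the log2 difference was 1.03 (SE 0.18, edgeR adjusted p = 0.0251), with the smallest p of the members. Ciita had 18.0, 16.6, 20.5 and 22.5 CPM in WT females against 48.8, 39.8, 30.5 and 37.9 CPM in Y665F females. Its log2 difference was 0.89 (SE 0.16, edgeR adjusted p = 0.0311). H2-Oa gave 24 counts over the 4 WT females and 28 over the 4 Y665F females, or 0.163 CPM (95% Poisson interval 0.104 to 0.243) and 0.234 CPM (0.155 to 0.338), intervals that cover counting error only.

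In all, 8 of the 9 tested genes rose in Y665F females, against 2.31% of the 15642 tested genes called higher. The median log2 difference was 0.90 over the members and 0.02 over all tested genes. All 9 were without overlap between the groups, which held, in the same direction, for 19.9% of all tested genes. The calls lay close to the threshold. No member was called when any single WT female, or Y665F female 1 or 4, was left out, and 1 was called without Y665F female 2, whereas all 9 were called without Y665F female 3, the library with epithelial markers; in each of these fits all 9 stayed higher in Y665F.

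In males, 8 of the 9 estimates were above 0, but no gene passed the adjusted threshold. The spread was wider here, with a biological coefficient of variation of 47.2% over all genes, against 26.6% in females. Ciita was at 26.5, 16.8, 23.0 and 18.8 CPM in WT males and at 58.1, 58.1, 55.4 and 49.5 CPM in Y665F males, with no overlap. Its log2 difference was 1.42 (SE 0.18, edgeR adjusted p = 0.0873). That adjusted p was the lowest of all genes but was shared with other genes, and Ciita ranked 6 by unadjusted p. Cd74 was at 378, 287, 361 and 252 CPM in WT males and at 779, 967, 619 and 604 CPM in Y665F males, a log2 difference of 1.27 (SE 0.24, edgeR adjusted p = 0.117). For H2-Aa, the 4 WT males had 197, 131, 176 and 132 CPM and the 4 Y665F males 366, 413, 288 and 282 CPM.

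H2-Ab1, H2-Eb1, H2-DMa, H2-DMb1 and H2-Ob likewise did not overlap between these groups, with log2 differences of 0.92 (H2-DMb1) to 1.18 (H2-Ab1). The exception was H2-DMb2, at 4.75, 31.6, 6.13 and 2.26 CPM in WT males and at 9.92, 10.6, 9.15 and 9.30 CPM in Y665F males. Its log2 difference was -0.13 (SE 0.73) with all libraries and 1.20 without WT male 2. No member was called in edgeR, and 0% of the 16240 tested genes were, while 8 of the 9 members and 2772 of all genes (17.1%) had an unadjusted p under 0.05. DESeq2 called 7 members and 1036 genes, and edgeR called 8 members when all 24 libraries shared 1 fit. Without WT male 1, the only WT male with epididymis markers near 0, 5 members were called. Non-overlap in the higher direction held for 8 of the 9 members and for 5.59% of all tested genes.

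Whether the effect of Y665F differed between the sexes was tested as an interaction. None of the 9 members passed (edgeR, lowest adjusted p = 0.238), nor did any of 16732 genes, or 0%. An unadjusted p under 0.05 was found for 3645 genes (21.8%) and for no member. The interaction estimate of Ciita was 0.53 (log2, SE 0.25), larger in males. DESeq2 called 1152 genes and also no member.

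**Figure D2:**
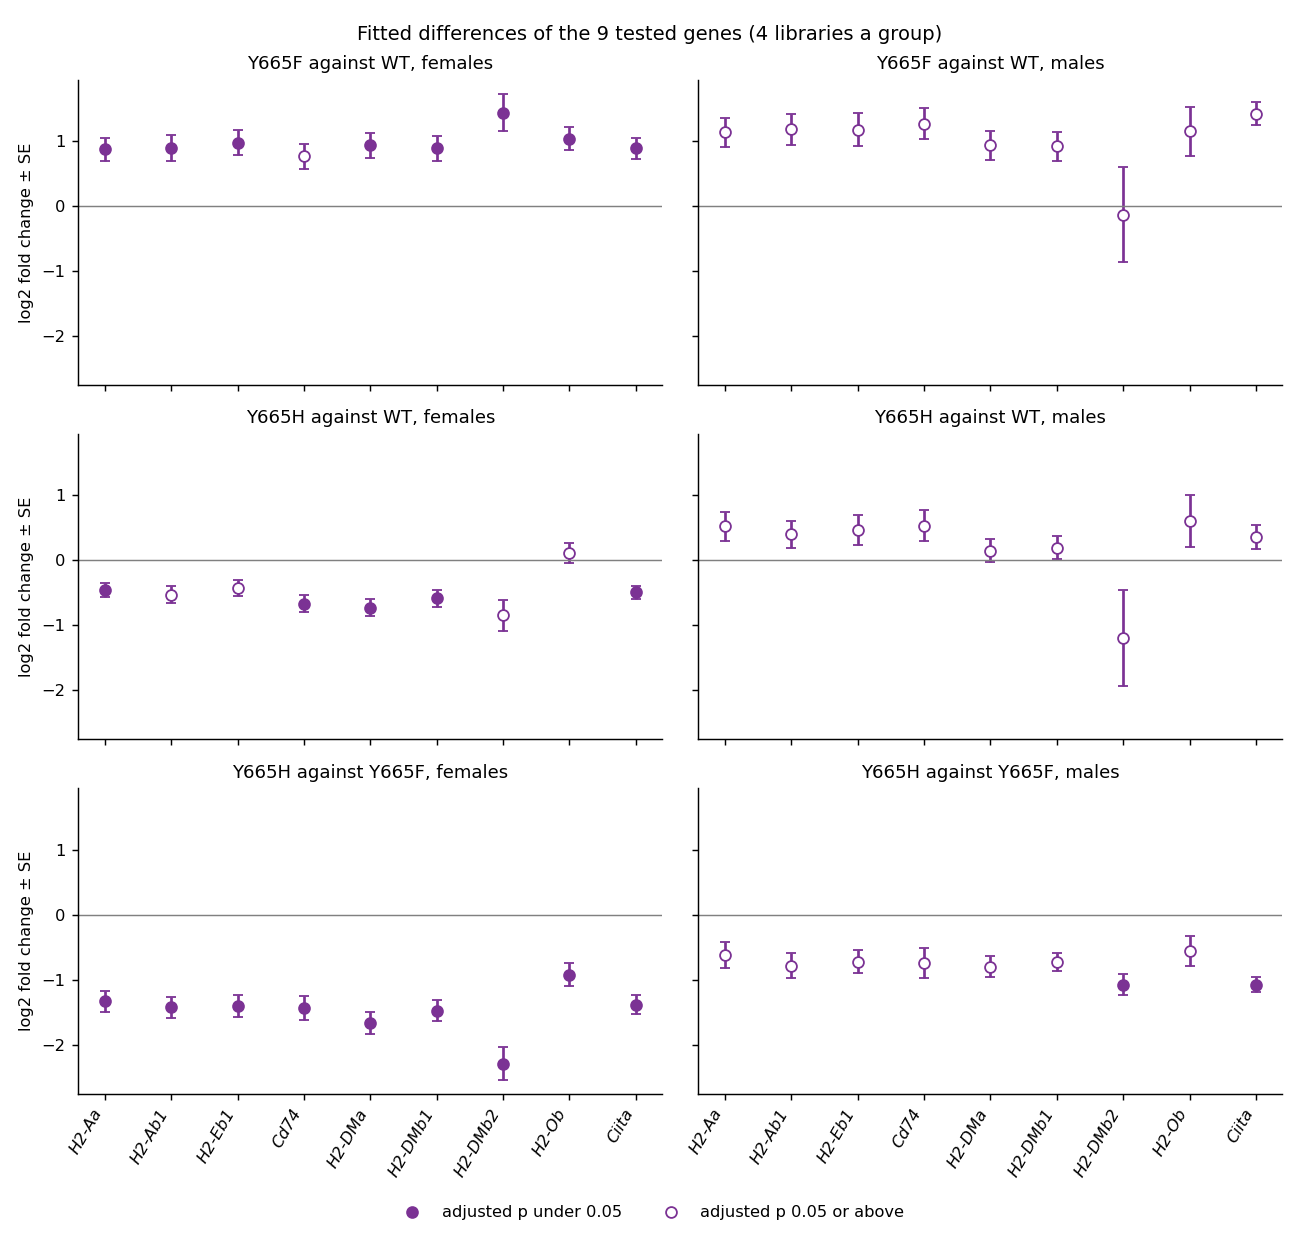
Log2 fold change with its standard error for the 9 tested genes in 6 comparisons (vertical axis log2; filled points have an edgeR adjusted p under 0.05; 4 libraries a group). Y665F against WT lies at 0.77 to 1.44 in females, Y665H against WT lies below 0 in females for all but H2-Ob, and Y665H against Y665F lies below 0 in both sexes for all 9.

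In Y665H females H2-Aa, Cd74, H2-DMa, H2-DMb1 and Ciita fell against WT females, and the Y665H libraries were close to each other. H2-Aa was at 109.9, 107, 107 and 99.9 CPM in Y665H females, all below the lowest WT female at 122 CPM. The log2 difference was -0.46 (SE 0.10, edgeR adjusted p = 0.0488). Cd74 was at 199.9, 204, 181 and 166 CPM in Y665H females, also below every WT female, with a log2 difference of -0.67 (SE 0.13, edgeR adjusted p = 0.0341). H2-DMa was at 11.9, 12.8, 11.4 and 12.3 CPM, with a log2 difference of -0.73 (SE 0.13, edgeR adjusted p = 0.0291). Ciita was at 13.2, 12.8, 14.3 and 14.2 CPM, with a log2 difference of -0.49 (SE 0.11, edgeR adjusted p = 0.0437).

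H2-DMb1 fell to 12.8 ± 1.10 CPM (log2 difference -0.58, SE 0.13, edgeR adjusted p = 0.0476). H2-Ob did not pass the test. It was at 1.94, 2.11, 2.39 and 2.61 CPM in Y665H females, overlapping the 1.87 to 2.46 CPM of WT females, with a log2 difference of 0.12 (SE 0.16, edgeR adjusted p = 0.689). H2-Ab1 (log2 difference -0.53), H2-Eb1 (-0.42) and H2-DMb2 (-0.85) did not pass the test, with adjusted p of 0.0630 to 0.0857 in edgeR. Together, 5 of the 9 tested genes fell (H2-Aa, Cd74, H2-DMa, H2-DMb1 and Ciita), against 1.8% of the 15469 tested genes called lower. Without overlap were 6 of the 9, the same 5 and H2-Ab1, against 6.81% of tested genes in that direction. The coefficient of variation of H2-Ab1 was 3.27% among Y665H females and 19.2% among WT females. None of the 5 calls held when WT female 1 or 4 or any single Y665H female was left out. Leaving out WT female 2 gave 8 calls, leaving out WT female 3 gave 3, and none was called when all 24 libraries shared 1 fit.

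In males the Y665H libraries overlapped WT for every member. H2-Aa was at 217, 228, 169 and 300.3 CPM in Y665H males against 131 to 197 CPM in WT males, with a log2 difference of 0.52 (SE 0.22, edgeR adjusted p = 0.402). Cd74 was at 379, 481, 350.4 and 632 CPM against 252 to 378 CPM, with a log2 difference of 0.53 (SE 0.24, edgeR adjusted p = 0.402). The estimate for Ciita was 0.36 (SE 0.18). Of the 9 estimates 8 were above 0, and that of H2-DMb2 was -1.20 with all libraries and 0.13 without WT male 2. In edgeR 0 members and 0% of 16406 genes were called, 1 member (H2-Aa) and 1874 genes (11.4%) had an unadjusted p under 0.05, and DESeq2 called 0 members and 64 genes.

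The Y665H estimates were thus below 0 in females and above 0 in males for 7 members, all but H2-DMb2 and H2-Ob. An unadjusted p under 0.05 in the interaction of Y665H with sex was found for these 7 and for 18.3% of all genes. The interaction was 0.78 to 1.19 on the log2 scale for these 7, with an unadjusted p of 0.000640 for Cd74 and 0.00140 for Ciita. After adjustment in edgeR none passed (0.0882 for Cd74, 0.106 for Ciita), and 2 of 16827 genes did, or 0.0119%. DESeq2 called 7 members for this interaction, and edgeR called 7 without WT male 1. These calls therefore changed with the test and with 1 library.

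The mutants were also compared directly; the 3 comparisons within a sex share libraries, so they are not independent of each other. In females all 9 tested genes fell from Y665F to Y665H, against 8.59% of the 15493 tested genes called lower. In Ciita, the 4 Y665F females (30.5 to 48.8 CPM) and the 4 Y665H females (12.8 to 14.3 CPM) were far apart, with a log2 difference of -1.38 (SE 0.15, edgeR adjusted p = 0.00165). H2-DMb2 differed by -2.29 (SE 0.25), H2-DMa by -1.66 (SE 0.17), H2-DMb1 by -1.47 (SE 0.16), Cd74 by -1.44 (SE 0.19), H2-Ab1 by -1.43 (SE 0.17), H2-Eb1 by -1.40 (SE 0.17) and H2-Aa by -1.33 (SE 0.17). H2-Ob differed least, by -0.92 (SE 0.17, edgeR adjusted p = 0.00979). The median over the members was -1.43 and over all tested genes -0.03. All 10 genes, H2-Oa included, were without overlap, as were, in the lower direction, 21.5% of tested genes. The 9 calls held in every other fit that was run, namely DESeq2, scaling by library totals, no filter, all 24 libraries, the replicate block and each library left out.

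In males, all 9 tested genes were lower in Y665H than in Y665F, and 2 fell by the test, against 0.901% of 15986 genes. Ciita was at 49.5 to 58.1 CPM in Y665F males and at 27.3, 26.8, 23.4 and 31.5 CPM in Y665H males, with a log2 difference of -1.07 (SE 0.11, edgeR adjusted p = 0.00848). H2-DMb2 was at 9.15 to 10.6 CPM in Y665F males and at 5.37, 4.76, 3.69 and 5.32 CPM in Y665H males, with a log2 difference of -1.08 (SE 0.16, edgeR adjusted p = 0.0243). The other 7 differed by -0.55 (H2-Ob) to -0.80 (H2-DMa), and H2-Aa and Cd74 overlapped between the groups; 6.17% of tested genes were lower without overlap. Neither call held without Y665F male 1 or 3, 1 held without Y665F male 2 or any single Y665H male, and 4 members were called without Y665F male 4. This comparison does not use the WT males, in which epididymis markers were highest.

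Between WT males and WT females, 0 of the 9 members were called in edgeR, although 13.1% of 15865 genes were. The log2 differences lay between -0.20 (H2-Ob) and 0.21 (H2-DMb1), apart from 1.97 (SE 0.77) for H2-DMb2, the only member with an unadjusted p under 0.05, which DESeq2 called (adjusted p = 0.0314). Without WT male 2, that difference was 0.64 (edgeR adjusted p = 0.321). Under scaling by library totals the estimates of H2-Aa, H2-Ab1, H2-Eb1, Cd74 and Ciita changed from below to above 0, while the median of all genes moved from 0.04 to 0.22, so no direction is given for them. The classical chains and Cd74 summed to 773 ± 117 CPM in WT females and 815 ± 174 CPM in WT males.

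As shares of counts, Ciita was 0.0217 to 0.0283 of the sum of the classical chains and Cd74 in WT females. The range was 0.0242 to 0.0274 for the Y665F and 0.0234 to 0.0291 for the Y665H females. In Y665F males that ratio was 0.0255 to 0.0363, overlapping the 0.0248 to 0.0288 of WT males. H2-Ob relative to H2-Ab1 was 0.0166 to 0.0242 in Y665H females and 0.0109 to 0.0153 in WT females, without overlap. H2-DMb2 counts were 0.0846 to 0.288 of H2-DMb1 counts in 23 libraries and 1.10 in WT male 2. The other members were at or near the range of the remaining WT males in that library: Ciita stood at 16.8 CPM against 18.8 to 26.5 CPM, and H2-DMb1 at 28.8 against 18.4 to 30.1 CPM.

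**Figure D3:**
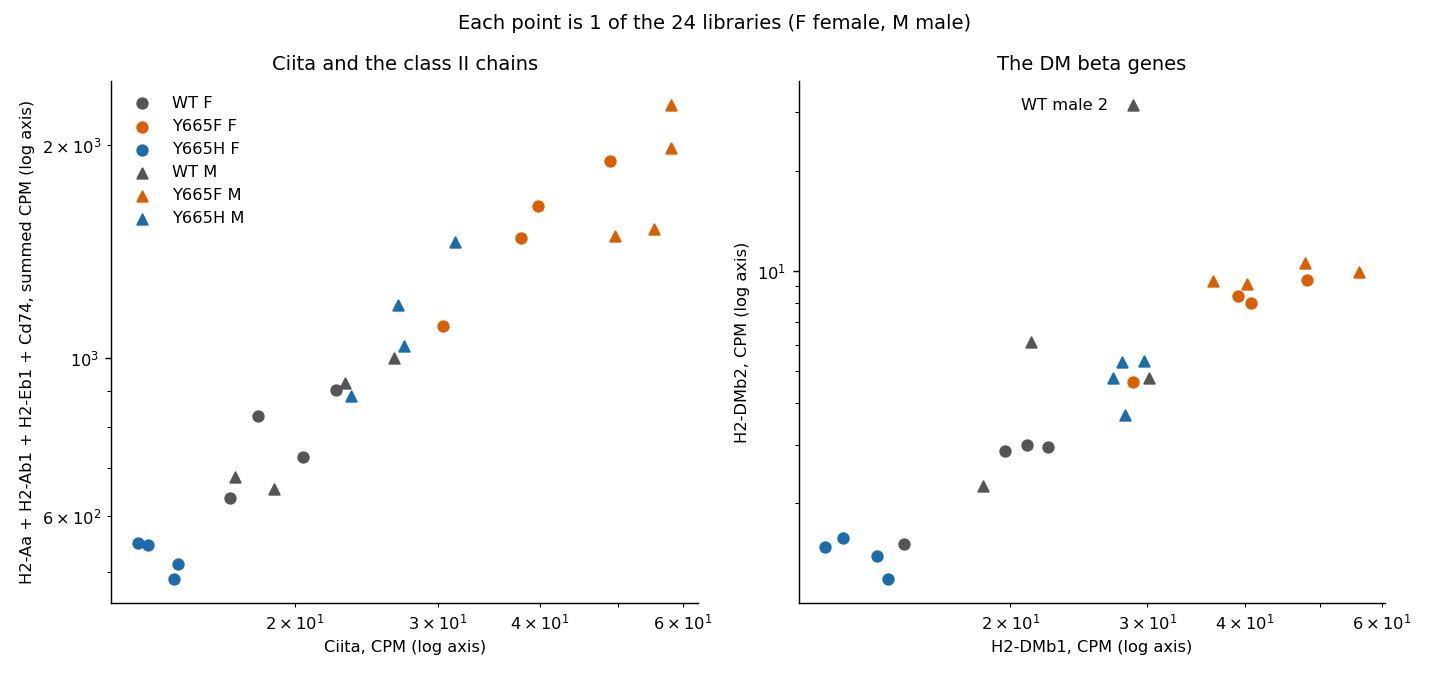
Left, summed CPM of H2-Aa, H2-Ab1, H2-Eb1 and Cd74 (vertical) against Ciita (horizontal, CPM); right, H2-DMb2 (vertical) against H2-DMb1 (horizontal), both in CPM. All axes are logarithmic, and each point is 1 of 24 libraries. The libraries run upward together on the left, from Y665H females at 488 to 548 summed CPM to a Y665F male at 2281, and WT male 2 lies apart on the right with 31.6 CPM of H2-DMb2.

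Across the 24 libraries, the log2 level of Ciita and the mean log2 level of H2-Aa, H2-Ab1, H2-Eb1 and Cd74 had a Pearson r of 0.969, which remained 0.856 for deviations from the group means. These libraries share groups and scaling, so the values are descriptive. For the same mean, r was 0.947 with H2-DMa, 0.940 with H2-DMb1, 0.819 with H2-Ob and 0.679 with H2-DMb2. For deviations from the group means these were 0.707, 0.622, 0.583 and 0.140, the last being that of H2-DMb2. The non-member genes most like the mean of the 4, among 14838 genes whose mean reached 1 CPM, were Tifab (r = 0.971), Coro1a (0.966), Cyp4f18 (0.964), Themis2 (0.960) and Lcp2 (0.959). Tifab went from 7.57 CPM in WT females to 15.6 CPM in Y665F females and 4.25 CPM in Y665H females. For Ciita they were Tifab (0.969), Myo1g (0.967), Lcp2 (0.964), Batf3 (0.963) and Dennd1c (0.961). For deviations from the group means the leading genes for Ciita were Itga4, Aim2, Adgre4, Vtn and Tifab, so 1 of the 5 was shared, against 3 of the 5 for the mean of the 4 genes and 2 of the 5 for H2-Ob. For H2-Ob the most alike gene was Btla, an inhibitory receptor of lymphocytes (r = 0.961).

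Genes that control class II transcription were compared from a list of 18, which holds the RFX and NF-Y subunits, the interferon-γ receptor chain genes, Irf1, Irf4, Irf8, Spi1 and others. Of the 17 tested in females, 0 were called between Y665F and WT (edgeR, lowest adjusted p = 0.0949), and 7 had an unadjusted p under 0.05, as had 26.3% of all tested genes. In Y665H females 1 fell against WT, the interferon-γ receptor gene Ifngr2, from 32.8 ± 3.50 to 23.1 ± 2.46 CPM (log2 difference -0.49, SE 0.10, edgeR adjusted p = 0.0428). That call was lost in 6 of the 8 fits that left out a library, and held without WT female 3 or Y665H female 2. Between Y665H and Y665F females 3 of the 17 were called lower and 1 higher, beside 8.59% of all tested genes called lower. Irf8, a factor of myeloid and B cells, fell from 31.7 ± 2.77 to 16.9 ± 2.04 CPM, and Ifngr2 fell from 35.4 ± 1.49 to 23.1 ± 2.46 CPM. None of the 6 RFX and NF-Y subunit genes, singled out after their values were seen, was called in any of the 9 tests. Their log2 differences between Y665F and WT lay between -0.42 and 0.26 in females and between -0.19 and 0.06 in males.

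Of 11 genes for antigen processing and class II turnover, 1 rose in Y665F females against WT, beside 2.31% of all tested genes. This was Ctss, the protease that trims the invariant chain, from 31.8 ± 6.14 to 78.7 ± 19.2 CPM (log2 difference 1.18, SE 0.20, edgeR adjusted p = 0.0245). It fell by 1.26 on the log2 scale from Y665F to Y665H females. There 4 of the 11 genes were called lower, Ifi30 among them, beside 8.59% of all tested genes. Called higher was 1, the protease gene Ctsd, whose call was lost in 5 of the 8 fits without a library. Of 11 costimulation and partner genes, 2 rose in Y665F females, beside the same 2.31% of all tested genes. Cd4, the co-receptor for class II, rose from 1.44 ± 0.135 to 5.65 ± 1.02 CPM (log2 difference 1.84, SE 0.18, edgeR adjusted p = 0.00884). Pdcd1lg2, the PD-1 ligand PD-L2, rose from 0.122 ± 0.0318 to 0.497 ± 0.160 CPM. Its WT level is near the floor, as 3 counts correspond to 0.0778 to 0.0867 CPM in the WT females. The Cd4 call held with any single library left out, whereas those of Ctss and Pdcd1lg2 held only without Y665F female 3 and were lost in the other 7 fits. From Y665F to Y665H females 5 of the 11 were called lower, with Icosl, Cd37 and Cd40 at the smallest p, and 2 higher. Of all tested genes, 8.59% were called lower.

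Of 16 class I presentation genes, 14 were tested, and 0 were called for Y665F against WT in females (lowest edgeR adjusted p = 0.104), with 6 at an unadjusted p under 0.05, beside the same 26.3% of all genes. Their median log2 difference was 0.13, beside 0.90 for the class II genes and Ciita. In males the medians were 0.63 and 1.15, with 0 called in either list. From Y665F to Y665H, Nlrc5, the class I counterpart of Ciita, fell from 76.8 ± 10.3 to 47.3 ± 3.37 CPM in females and from 98.4 ± 11.9 to 57.2 ± 9.72 CPM in males, and H2-T23 and H2-M3 fell in females. Of 8 fits that left out a library, the call of Nlrc5 was lost in 3 in females and 6 in males, and those of H2-T23 and H2-M3 in 6 each. In WT males 4 of the 14 tested class I genes were called lower than in WT females, H2-D1, Psmb9 and Erap1 among them. Of all tested genes, 13.1% were called in either direction. The calls of Psmb9 and Erap1 were lost in 7 of the 8 fits without a library and that of H2-D1 in 2.

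Markers of the cells that carry class II were compared in the same libraries. In bulk tissue, fewer cells of a type and less RNA per cell cannot be told apart. The class II chains with Cd74 summed to 1.98 times the WT mean in Y665F females and 0.677 times in Y665H females. The 9 dendritic cell markers summed to 1.85 and 0.989 times, 14 B cell markers to 2.10 and 0.903 times, 12 macrophage markers to 1.41 and 0.856 times, and 5 leukocyte markers to 1.97 and 0.725 times. The 5 plasma cell markers summed to 2.28 times in Y665F (1.53 times without Y665F female 3) and 1.07 times in Y665H. Most of that sum was Sdc1, at 28.4 CPM in WT females beside 10.4 CPM for Jchain, the next highest. The 5 markers of plasmacytoid dendritic cells summed to 1.03 and 1.02 times. The plasmacytoid sum was nearly all Tcf4, at 136 CPM in WT females beside 1.11 CPM for Siglech, the next highest. Its ratios therefore describe Tcf4 and not the list. In Y665F females, 2 of the 9 dendritic cell genes, 4 of the 14 B cell genes, 0 of the 12 macrophage genes and 3 of the 5 leukocyte genes were called higher. In the same comparison 9 of 13 T and NK cell genes were called higher, and their sum was 3.20 times the WT mean. Of all tested genes, 2.31% were called higher there. In Y665H females against WT, 2 of 9 dendritic cell and 2 of 12 tested T and NK cell genes were called lower. Of the B cell, macrophage and leukocyte genes 0 were, beside 1.8% of all tested genes. Of the 12 tested T and NK cell genes 6 were higher and 6 lower, and their sum was 25.7 CPM in Y665H female 4 against 6.09 to 9.91 CPM in the other Y665H females. From Y665F to Y665H females, 6 of 9 dendritic cell, 8 of 14 B cell and 5 of 12 macrophage genes were called lower. So were 5 of 5 leukocyte and 9 of 13 T and NK cell genes, beside 8.59% of all tested genes. The 12 adipocyte markers summed to 0.823 times the WT mean in Y665F females (0.907 times without Y665F female 3) and 1.14 times in Y665H females. All 12 had estimates below 0 in Y665F females (median log2 difference -0.38), as had the 5 tested endothelial markers (median -0.66), with 0 called. From Y665F to Y665H females, 11 of the 12 adipocyte estimates were above 0 and 2 were called higher. The part of these markers in the class II results was not tested.

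The summed class II chains relative to the leukocyte markers overlapped between the female groups: 5.07 to 6.07 in WT, 5.34 to 5.76 in Y665F and 4.74 to 5.66 in Y665H. Relative to the dendritic cell markers they were 8.48 to 10.9 in WT, 9.32 to 13.1 in Y665F and 5.80 to 7.63 in Y665H, which lay below the others without overlap. Most of that dendritic cell sum came from 2 genes, Clec10a at 40.2 and Zbtb46 at 17.0 CPM in WT females. The sum and its ratios therefore describe mainly these 2 genes and less the list. Whether their reads came from dendritic cells was not tested. Of the 9 dendritic cell genes, 6 had estimates below 0 and 3 above in Y665H females against WT (median log2 difference -0.27). Relative to the macrophage markers the class II chains were 0.745 to 0.876 in WT, 0.978 to 1.36 in Y665F and 0.570 to 0.783 in Y665H. From the macrophage list, Adgre1 was at 49.7 CPM in WT females. From the dendritic cell list, Itgax was at 5.78, Clec9a at 5.04, Flt3 at 2.03 and Xcr1 at 0.677 CPM. No gene of the dendritic cell, B cell or macrophage lists was at 0 over a group.

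In males, the class II chains with Cd74 summed to 2.23 times the WT mean in Y665F and 1.40 times in Y665H. The dendritic cell markers summed to 1.67 and 1.08 times, the B cell markers to 1.94 and 1.36 times, and the macrophage markers to 1.40 and 1.33 times. The leukocyte markers summed to 1.14 and 0.712 times, and these ratios depend largely on Cd52, also known as an epididymis transcript. Cd52 ranged from 4.86 to 299 CPM in WT males, with means of 164 CPM in WT, 64.7 CPM in Y665F and 39.2 CPM in Y665H males. Of the 5 leukocyte genes, the 4 others had estimates above 0 in both mutants. The median log2 difference over the 5 was 0.78 in Y665F and 0.19 in Y665H males, with 0 called. The T and NK cell markers summed to 1.01 and 0.292 times with WT male 2 and to 2.84 and 0.818 times without it. In Y665F males 11 of the 13 were higher without overlap, as were 5.59% of all tested genes. Without WT male 2, the class II chains with Cd74 summed to 2.11 and 1.33 times. In the same libraries the dendritic cell markers summed to 1.47 and 0.954 times, the B cell markers to 1.77 and 1.24 times and the macrophage markers to 1.26 and 1.20 times. The plasma cell markers summed to 0.547 and 0.472 times with that library and to 1.07 and 0.921 times without it. Relative to the macrophage markers, the class II chains were 1.51 to 1.81 in Y665F males, 0.922 to 1.18 in Y665H males and 0.668 to 1.29 in WT males. Their part, and that of the epididymis markers in the WT males, was not tested.

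**Figure D4:**
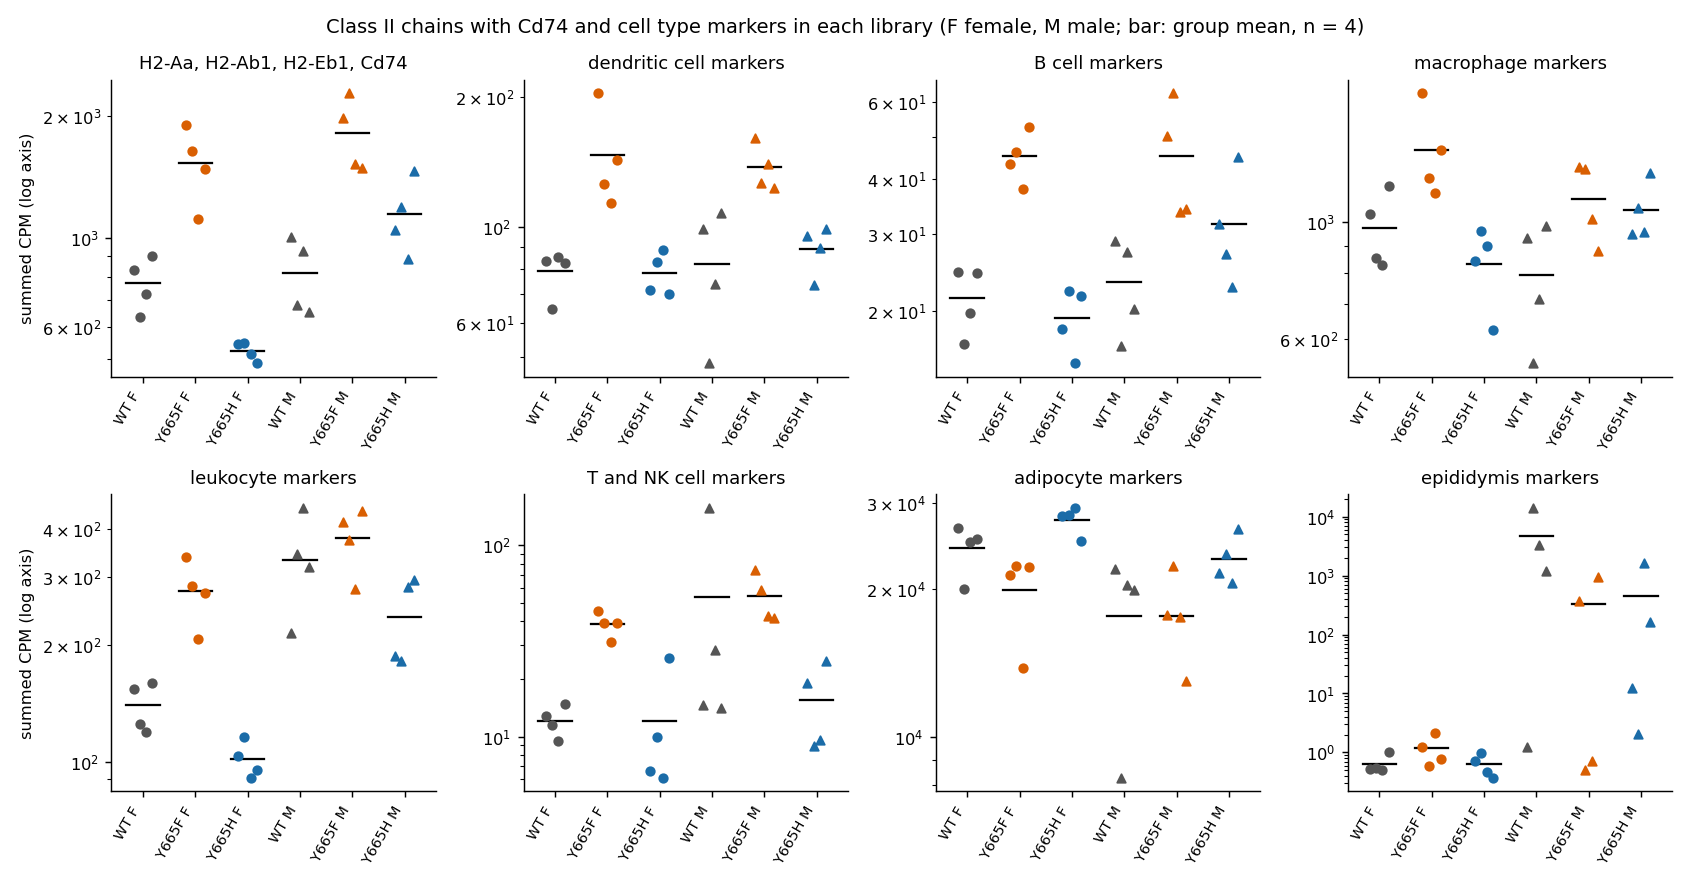
Summed CPM per library (log axes) of the class II chains with Cd74 and of 7 marker lists; circles are female and triangles male libraries, and bars are means of 4. Class II, dendritic cell, B cell and leukocyte sums are all higher in Y665F than in WT females, and epididymis markers reach 14031 CPM in WT male 2.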

How the data were processed

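Total RNA was sequenced after ribosomal RNA removal, with a stranded kit and paired ends, per the labels' protocols. The deposited values are raw read counts per gene symbol; the submitters' processing notes name STAR, HTSeq 0.9.1, Trimmomatic 0.36 and mm10. The strand setting and annotation are not given in the sources used here. Groups came from titles. The 5 entries that name no gene (24.8 to 39.7% of a library's counts) were left out. Each contrast was fitted on its own libraries (interactions on 16) with edgeR 4.0.16 (TMM, filterByExpr, quasi-likelihood test, Benjamini-Hochberg adjustment over all tested genes; called: adjusted p under 0.05; R 4.3.3), tested on simulated data. Exon lengths were from GENCODE M21. Alternatives were DESeq2 1.42.0, library totals, no filter, 1 fit over all 24 libraries, a replicate block and leaving out each library. The text names all members, at most 3 called genes (smallest p) per pathway list and contrast, and the 5 genes most alike. Members and lists were chosen with earlier results of these data known. Single values of some listed genes are not reported here.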

Additional observations from a re-analysis of the deposited data

Results flagged for a closer look

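In 60 sets of 4 libraries (10 genes in 6 groups), 2 held a library whose gap to the nearest other library as a share of the whole range exceeded Dixon's critical value for 4 samples; chance marks about 1 set in 20. Both concern H2-DMb2. WT male 2 had 31.6 CPM beside 2.26 to 6.13 CPM in the other WT males, with a gap of 0.868 of the range. Its counts of H2-DMb1 and H2-DMb2 were near equal, with a ratio of 1.10. WT female 2 had 1.50 CPM of H2-DMb2 beside 2.88 to 2.98 CPM in the other WT females, with a gap of 0.927 of the range.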

How the results depend on the processing

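The number of members called and the number of all genes called changed with the processing in most comparisons. With DESeq2, called genes numbered 2030 for Y665F and 1782 for Y665H against WT in females (8 members for Y665H), 1036 (7 members) and 64 in males, 1078 (8 members) for Y665H against Y665F in males, 3920 (1 member) for sex in WT, and 1152 and 689 (7 members) for the interactions of Y665F and Y665H with sex. With 1 fit over all 24 libraries they numbered 2261 (8 members) for Y665F in males, 250 (0 members) for Y665H in females, 203 for Y665H in males, 400 for Y665H against Y665F in males, 5987 (1 member) for sex, and 1 and 201 for the interactions. With library totals they numbered 1164 for Y665F in females and 72 for the interaction of Y665H. Without a filter on low counts, 2 members were called for Y665H in females. The cause was not tested. Replicate numbers gave no steady pairing of the libraries: the deviations of same-numbered libraries correlated at -0.37 to 0.72, and at most 2 of 4 pairs in a comparison exceeded 0.1. A library correlated best with its own number in 3 of 4 cases for sex in WT and in 2 of 4 for Y665H against Y665F in males. In the other comparisons this held for 0 or 1 of 4. With the replicate block, 1 member was called for Y665F in females, 0 members and 32 genes for Y665H in females, 1583 genes for Y665H against Y665F in females, 0 members and 0 genes in males, 825 genes for sex and 1 for the interaction of Y665H.

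Leaving out 1 library at a time gave 67 to 747 genes and 0 to 9 members for Y665F in females, 0 to 570 genes and 0 to 5 members in males, 20 to 1269 genes and 0 to 8 members for Y665H in females, 0 to 1 gene in males, 1554 to 2839 genes for Y665H against Y665F in females, 10 to 220 genes and 0 to 4 members in males, 251 to 5076 genes for sex, 0 to 1686 genes for the interaction of Y665F, and 0 to 1844 genes and 0 to 7 members for that of Y665H. The highest of these for sex and both interactions came without WT male 1.

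Some signs changed. With library totals the sex difference was 0.13 for H2-Aa, 0.10 for H2-Ab1, 0.063 for H2-Eb1, 0.10 for Cd74 and 0.16 for Ciita, and the interaction of Y665F was -0.15 for H2-DMb1 and -0.059 for H2-Ob. That of H2-DMa was 0.0030 with DESeq2, 0.0154 without a filter, 0.0030 with all 24 libraries and 0.0379 with the replicate block. H2-DMb2 gave 0.61 for Y665F in males and 0.068 for the interaction of Y665H with the replicate block. With 1 library left out, the sex difference ran from -0.18 to 0.062 for Cd74, -0.16 to 0.094 for Ciita, -0.18 to 0.072 for H2-Aa, -0.21 to 0.046 for H2-Ab1, -0.025 to 0.25 for H2-DMa and -0.28 to 0.030 for H2-Eb1. The interaction of Y665F ran from -0.15 to 0.18 for H2-DMa, -0.11 to 0.18 for H2-DMb1 and -0.086 to 0.49 for H2-Ob. H2-DMb2 ran from -0.46 to 1.20 for Y665F and -1.55 to 0.13 for Y665H in males, -0.68 to 0.98 for the interaction of Y665H and 0.64 to 2.32 for sex. Library totals moved the median of all genes from 0.02 to 0.15 (Y665F, females), from -0.03 to -0.18 (between the mutants, females) and from -0.06 to -0.25 (interaction of Y665F). H2-Oa, at 2 to 23 counts per library, was not tested. Marker sums without WT male 2 or Y665F female 3 were chosen after seeing the data.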
